A study of Mus musculus with 12 samples.

Results

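Glucocorticoid-responsive genes were followed in the lumbar dorsal root ganglia (DRG) of mice across the day. The set held 10 genes chosen by symbol: Fkbp5, Tsc22d3, Sgk1, Zbtb16, Klf9, Mt1, Mt2, Plin4, Fam107a and Nr3c1. They are 10 of the 38594 Ensembl genes of the table, and all 10 were among the 25809 genes with enough signal to be tested. DRG hold the cell bodies of sensory neurons next to the spinal cord, together with their satellite glia, Schwann cells, vessels and resident immune cells. The ganglia were taken at lumbar levels L1 to L6 from male C57BL/6J mice aged 6 to 12 weeks, and their messenger RNA was sequenced as paired reads of 150 bases. There were 4 groups of 3 libraries, collected at zeitgeber time (ZT, the hour counted from lights on) 2, 8, 14 and 20. The mice of every group were naive per the labels, with no allele or agent named. Whether the libraries of a time came from separate animals is not said in the labels, so p-values measure only the spread between these libraries.

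Glucocorticoids are adrenal steroid hormones, and corticosterone is the main one in mice. In nocturnal rodents its level in blood rises late in the day and is highest around the onset of darkness. The hormone binds the glucocorticoid receptor in the cytoplasm, and the receptor then enters the nucleus and binds DNA at glucocorticoid response elements, inverted repeats of a short half-site, from which it raises the transcription of target genes. Levels of the hormone were not analysed here, and the labels name no dose of it. These data thus show the target genes at 4 times of day and not a response to a known dose.

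In units of 1000000, the deposited estimated counts of a library summed to between 89.8 and 125.0, which is about 47.9 to 67.1 in reads. Levels are given in CPM, the deposited counts scaled to a TMM-normalized library size of 1000000. The deposited values appear close to coverage, as judged from short genes only. If so, they are already per length, but whether levels may be set side by side between genes was not tested. The lowest Pearson r between 2 libraries, over log2 CPM of all genes, was 0.965. Summed sensory neuron markers were at 8925 to 9529 CPM in every library, those of satellite glia at 4595 to 6339 CPM and those of myelinating Schwann cells at 6007 to 8506 CPM. Skeletal muscle, which borders the ganglia, was uneven: its 11 markers summed to 73.2 to 329 CPM at ZT2, 75.1 to 348 at ZT8, 151 to 421 at ZT14 and 24.6 to 849 at ZT20. The 5 red cell markers summed to 1146 to 2598 CPM at ZT2, 1487 to 1577 at ZT8, 2467 to 2724 at ZT14 and 512 to 826 at ZT20, with the highest range at ZT14, the time at which most members were highest; the 8 neutrophil and bone marrow markers were at 25.4 to 44.1 CPM at ZT20 and 64.1 to 149 CPM at the other times. The part of either in the levels of the members was not tested. No marker of the 12 cell lists was at 0 in every library. The library numbers in the labels follow the order of the times, so a batch of collection or preparation and the time of day cannot be told apart.

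The binding element of the receptor was looked for in the stretches around the start sites of the set. RefSeq start sites on GRCm38.p6 were matched for 8 of the 10 genes, in 17 windows of 300 bases that run from 250 bases before to 50 bases after the start. The full element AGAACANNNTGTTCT was in 3 of all 32851 such windows (0.00913%), and 1 of those was a window of Sgk1. A relaxed form, GNACANNNTGTNC, which contains the full one, was in 156 windows (0.475%). By gene it was found in 145 of 27025 genes (0.537%) and in 3 of the 8 genes of the set, namely Sgk1, Mt1 and Fam107a. Both forms were read on both strands. The relaxed element was in 4 of the 17 windows, since 2 start sites of Fam107a lie 2 bases apart and their windows hold the same match. For each of the 3 genes 1 window is shown, because these are the stretches of the set that hold the element, and capitals mark the match. They lie at chr10:21993640-21993939 on the plus strand for Sgk1, at chr8:94178839-94179138 on the plus strand for Mt1 and at chr14:8309728-8310027 on the minus strand for Fam107a.
Sgk1: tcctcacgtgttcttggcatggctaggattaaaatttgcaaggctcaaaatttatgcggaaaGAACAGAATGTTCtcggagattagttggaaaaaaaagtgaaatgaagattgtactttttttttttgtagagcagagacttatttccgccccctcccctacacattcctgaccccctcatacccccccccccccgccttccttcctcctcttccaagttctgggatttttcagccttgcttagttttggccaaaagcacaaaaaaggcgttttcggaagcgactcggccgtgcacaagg
Mt1: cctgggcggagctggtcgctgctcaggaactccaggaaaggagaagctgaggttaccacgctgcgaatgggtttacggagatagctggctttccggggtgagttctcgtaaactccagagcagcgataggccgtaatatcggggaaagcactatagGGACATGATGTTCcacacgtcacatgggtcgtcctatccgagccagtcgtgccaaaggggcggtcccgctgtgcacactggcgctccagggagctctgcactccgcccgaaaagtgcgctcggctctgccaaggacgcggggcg
Fam107a: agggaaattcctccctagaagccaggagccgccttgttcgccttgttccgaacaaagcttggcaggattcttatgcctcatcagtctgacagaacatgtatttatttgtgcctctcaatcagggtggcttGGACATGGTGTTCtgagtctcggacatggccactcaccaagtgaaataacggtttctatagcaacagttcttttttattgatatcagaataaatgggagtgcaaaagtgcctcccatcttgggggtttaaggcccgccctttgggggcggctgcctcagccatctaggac
The Sgk1 match runs from base -188 to base -176 from the start site, the Mt1 match from -94 to -82 and the Fam107a match from -120 to -108. Of the 9 coding transcripts of Sgk1 in GENCODE M21, 1 starts within 50 bases of that start site, against 1 of 3 for Mt1 and 3 of 4 for Fam107a. The half-site AGAACA alone was in 21.3% of all genes and in 3 of the 8, Tsc22d3, Sgk1 and Fam107a. A match of letters is a description of the window and shows no binding.

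Fam107a was the member whose level differed most clearly with the time of day. It encodes an actin-associated protein known to respond to stress and glucocorticoids, and lies at chr14:8296274-8318023 on the minus strand (GRCm38, GENCODE M21). Its level was at 15.8, 14.5 and 12.2 CPM in the ZT2 libraries, 18.7, 20.3 and 17.8 in the ZT8 libraries, 24.9, 26.5 and 30.5 in the ZT14 libraries and 14.8, 19.8 and 17.4 in the ZT20 libraries. All 3 ZT14 libraries lay above all 9 others, and the libraries of ZT8 lay above those of ZT2. The mean went from 14.2 ± 1.81 CPM at ZT2 through 18.9 ± 1.30 at ZT8 to 27.3 ± 2.88 at ZT14, and was 17.4 ± 2.50 at ZT20 (SD, n = 3 each). Fam107a rose 1.93-fold from ZT2 to ZT14 (95% interval 1.60 to 2.32; edgeR quasi-likelihood test, Benjamini-Hochberg adjusted p = 0.0237 over all 25809 genes). A cosine with a period of 24 h fitted to the 4 times had an amplitude of 0.48 ± 0.06 (SE, log2, mean to peak) and a peak at 13.5 ± 0.48 h, with an edgeR adjusted p of 0.0414. In the test of any difference among the 4 times the edgeR adjusted p was 0.0668. The step from ZT8 to ZT14 was 1.44-fold (edgeR adjusted p = 0.395) and the log2 change from ZT14 to ZT20 was -0.65 ± 0.12 (SE; edgeR adjusted p = 0.154), so neither passed.

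The Fam107a call sits close to the threshold and depends on the libraries used. When each of the 12 libraries was left out in turn, the edgeR adjusted p for ZT14 against ZT2 lay between 0.0140 and 0.140, and the call was lost in 7 of the 12 fits: without any 1 of the ZT2 libraries, without ZT8 replicate 1, without ZT14 replicate 2 or 3, and without ZT20 replicate 3. The log2 change itself stayed between 0.85 and 1.03 in those 12 fits. The 24-h call was lost in 11 of the 12, all but the fit without ZT20 replicate 1, with an amplitude between 0.43 and 0.52. Without the library of highest muscle score at each time (8 libraries left), Fam107a had a log2 change of 1.03 and an edgeR adjusted p of 0.186 for ZT14 against ZT2; with the muscle score as a covariate its log2 change was 0.96 ± 0.11 (SE) with an edgeR adjusted p of 0.0148.

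Plin4 had the widest range of the set at the lowest level. It encodes perilipin 4, a protein that coats lipid droplets and is abundant in fat, and lies at chr17:56100591-56109803 on the minus strand. Its level was at 0.358, 0.389 and 0.265 CPM in the ZT2 libraries, 0.575, 0.948 and 0.587 in the ZT8 libraries, 0.916, 0.841 and 1.15 in the ZT14 libraries and 0.500, 0.435 and 0.370 in the ZT20 libraries. Those of ZT8 and ZT14 all lay above those of ZT2 and ZT20, and the groups within each of these pairs of times overlapped. Its level at ZT14 was 2.87 times that at ZT2 (95% interval 1.91 to 4.30), a log2 difference of 1.52 ± 0.27 (SE) that did not pass over all genes (edgeR adjusted p = 0.145). The fitted 24-h cosine had an amplitude of 0.83 ± 0.13 (SE, log2) and a peak at 12.4 ± 0.60 h (edgeR adjusted p = 0.178). In a library about 63.0 to 278 reads supported these Plin4 values, far fewer than for the other members except Zbtb16. DESeq2, another count test, called Plin4 for ZT14 against ZT2 (adjusted p = 0.00130), as did edgeR on approximate reads (adjusted p = 0.0226); over all alternatives its adjusted p for that comparison lay between 0.00130 and 0.517. The adipocyte markers (8 listed, 7 of them tested) summed to 14.0 to 16.6 CPM at ZT2, 12.0 to 19.4 at ZT8, 17.4 to 29.5 at ZT14 and 15.2 to 20.1 at ZT20. With the adipocyte score as a covariate the Plin4 log2 difference was 1.59 ± 0.29 (SE; edgeR adjusted p = 0.237). In bulk tissue, more cells of a type and more RNA per cell cannot be told apart.

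Mt1 and Mt2 encode metallothioneins, small cysteine-rich proteins that bind zinc and copper and buffer oxidative stress; their genes are induced by metals as well as by glucocorticoids. They are neighbours on chromosome 8 at chr8:94179082-94180327 and chr8:94172664-94173568, both on the plus strand, with 5513 bases between the end of Mt2 and the start of Mt1. The longest identical run shared by their coding transcripts was 20 bases, shorter than a read of 150, although the sources used here do not give how reads of such pairs were assigned. Mt1 was at 144, 143 and 125 CPM in the ZT2 libraries, 152, 155 and 167 in the ZT8 libraries, 172, 165 and 195 in the ZT14 libraries and 135, 165 and 146 in the ZT20 libraries. All ZT8 and all ZT14 libraries of Mt1 lay above those of ZT2. The Mt1 mean was 177 ± 15.6 CPM at ZT14 against 137 ± 10.6 at ZT2 (SD, n = 3 each), a ratio of 1.29 (95% interval 1.14 to 1.47; edgeR adjusted p = 0.383). DESeq2 called Mt1 for this comparison (adjusted p = 0.0147) and in the 24-h test (adjusted p = 0.0278); over all alternatives the adjusted p for ZT14 against ZT2 lay between 0.0147 and 0.902.

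Mt2 varied more than Mt1 between the times. Mt2 was at 97.1, 91.8 and 65.1 CPM in the ZT2 libraries, 123, 135 and 116 in the ZT8 libraries, 118, 150 and 169 in the ZT14 libraries and 75.6, 122 and 93.0 in the ZT20 libraries. ZT8 and ZT14 again lay above ZT2 in every library, while ZT20 overlapped with all 3 other times. The ratio of ZT14 to ZT2 was 1.72 (95% interval 1.27 to 2.33; edgeR adjusted p = 0.501). The fitted peak stood at 12.3 ± 0.86 h for Mt2 and at 13.1 ± 0.85 h for Mt1 (SE). The core of the metal response element, TGCACNC or TGCGCNC on either strand, matched at 3 places in the Mt1 window and at 4 places in the Mt2 window. This core was in 25.7% of all windows, with 2 or more matches in 7.11% and 4 or more in 0.517% of them. By gene it was in 28.2% of all genes and in 4 of the 8 with a window here, Sgk1, Mt1, Mt2 and Fam107a. No gene of the metal handling list passed in any of the 8 tests run on the lists (0 of 8 by edgeR, DESeq2 or limma-trend). At an unadjusted p under 0.05 there was 1, Gclc, in ZT8 against ZT2 only, against 5.78% of all genes in that comparison. The 2 genes of that list with the lowest p in the 24-h test were Gclc, the rate-limiting enzyme of glutathione synthesis, at 46.1 ± 1.17 CPM at ZT2 and 48.3 ± 0.43 at ZT14, and the metal transporter Slc30a10, at 0.172 ± 0.0287 and 0.246 ± 0.108 CPM (SD, n = 3 each).

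**Figure D1:**
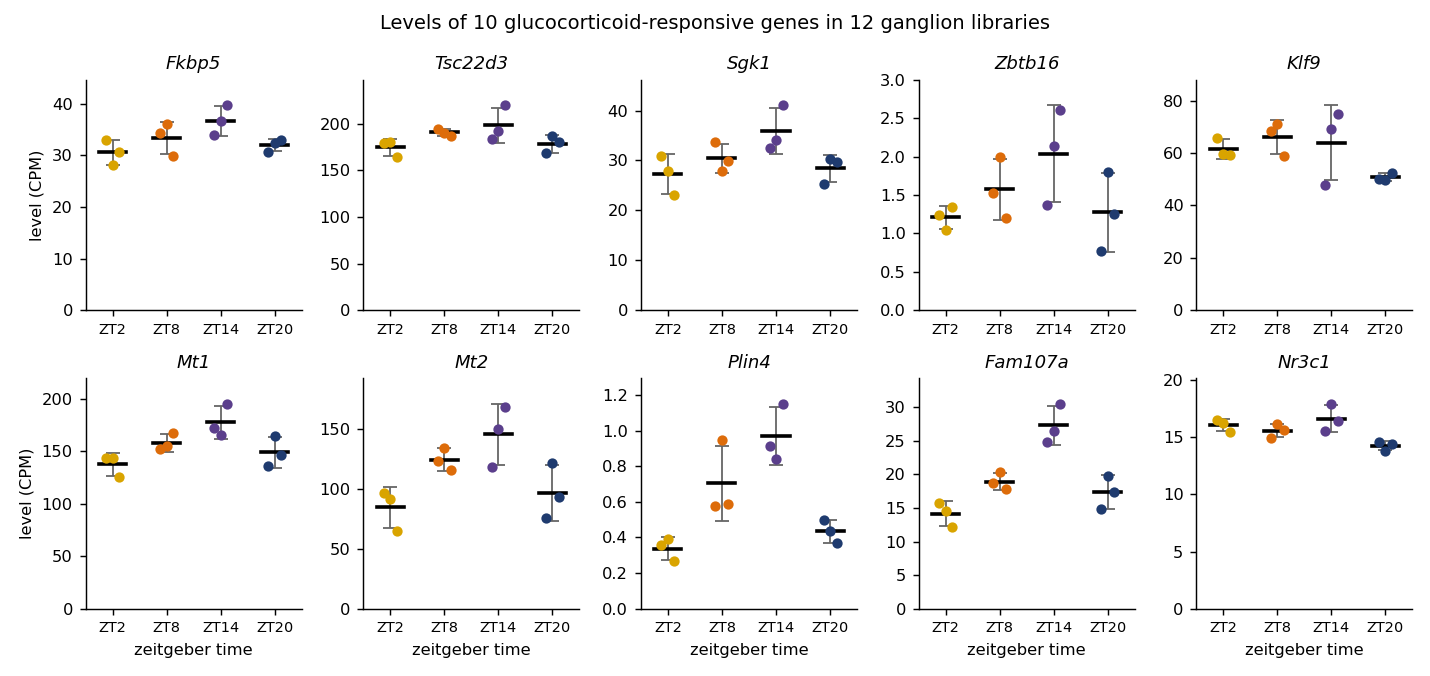
Level of each of the 10 genes in CPM (vertical axis, from 0) at ZT2, ZT8, ZT14 and ZT20; points are the 3 libraries of a time in replicate order, the bar is their mean and the whisker 1 SD. The 3 ZT14 libraries of Fam107a, at 24.9 to 30.5 CPM, stand above its 9 others, while the ZT14 libraries of Klf9 span 47.8 to 75.0 CPM.

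Fkbp5 and Tsc22d3 encode feedback and anti-inflammatory effectors of the receptor. FKBP5 is a co-chaperone that lowers the affinity of the receptor for its hormone, and the product of Tsc22d3, also called GILZ, is a leucine zipper protein that restrains inflammatory signalling. Fkbp5 (chr17:28399094-28517527, minus strand) was at 33.0, 28.1 and 30.7 CPM in the ZT2 libraries, 34.3, 36.0 and 29.9 in the ZT8 libraries, 33.9, 36.6 and 39.7 in the ZT14 libraries and 30.7, 32.3 and 33.0 in the ZT20 libraries. Its ZT14 libraries lay above those of ZT2 and of ZT20 and overlapped those of ZT8. Tsc22d3 (chrX:140539528-140600659, minus strand), the member of highest level, was at 179.7, 180.1 and 165 CPM in the ZT2 libraries, 195, 190.2 and 187 in the ZT8 libraries, 183, 192 and 220.0 in the ZT14 libraries and 168, 187 and 180.0 in the ZT20 libraries. The ZT14 range of Tsc22d3 overlapped those of ZT8 and ZT20 but not that of ZT2. The ratio of ZT14 to ZT2 was 1.20 for Fkbp5 (95% interval 1.06 to 1.36; edgeR adjusted p = 0.697) and 1.14 for Tsc22d3 (1.03 to 1.26; edgeR adjusted p = 0.838). Both were smaller than the ratio for Fam107a, and neither passed.

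Sgk1 encodes a kinase that raises the surface level of ion channels and transporters. It lies at chr10:21882184-21999903 on the plus strand and its window printed above holds the full receptor element. Sgk1 was at 30.8, 27.9 and 23.0 CPM in the ZT2 libraries, 33.6, 27.9 and 29.9 in the ZT8 libraries, 32.6, 34.0 and 41.1 in the ZT14 libraries and 25.3, 30.3 and 29.6 in the ZT20 libraries. The ZT14 libraries lay above all of ZT2 and ZT20 and overlapped ZT8. The ratio of ZT14 to ZT2 was 1.32 (95% interval 1.10 to 1.58; edgeR adjusted p = 0.697), and the fitted peak was at 13.1 ± 1.13 h (SE).

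Zbtb16 and Klf9 encode transcription factors. Zbtb16, a zinc finger repressor also known as PLZF, lies at chr9:48654297-48836222 on the minus strand and was the noisiest member. It was at 1.24, 1.05 and 1.35 CPM in the ZT2 libraries, 1.52, 2.00 and 1.20 in the ZT8 libraries, 1.36, 2.14 and 2.61 in the ZT14 libraries and 0.775, 1.80 and 1.25 in the ZT20 libraries. Its ZT14 and ZT2 libraries were only just apart, 1.36 being the lowest of the former and 1.35 the highest of the latter. The ratio of ZT14 to ZT2 was 1.69 with a wide interval of 1.04 to 2.72 (95%; edgeR adjusted p = 0.923).

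Klf9, a Krüppel-like factor that is also an output of the circadian clock, departed from the common order. It lies at chr19:23141226-23168134 on the plus strand. Klf9 was at 65.7, 59.4 and 59.1 CPM in the ZT2 libraries, 68.2, 71.2 and 58.8 in the ZT8 libraries, 47.8, 69.0 and 75.0 in the ZT14 libraries and 50.2, 49.5 and 52.4 in the ZT20 libraries. The ZT20 libraries were tight and lay below all of ZT2 and ZT8, while ZT14 spanned more than the range of all other times, with replicate 1 at its foot. The ratio of ZT14 to ZT2 was 1.04 (95% interval 0.848 to 1.28; edgeR adjusted p = 1.0). The log2 difference of ZT20 from ZT8 was -0.38 ± 0.13 (SE; edgeR adjusted p = 0.894), and the fitted peak was at 8.57 ± 1.33 h (SE). Without ZT14 replicate 3 the log2 difference of ZT14 from ZT2 was -0.08, and without ZT14 replicate 2 it was -0.01, so its direction is not settled.

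Nr3c1 encodes the glucocorticoid receptor itself and had the smallest fitted 24-h amplitude of the set, 0.07 ± 0.03 (SE, log2). It was at 16.5, 16.2 and 15.5 CPM in the ZT2 libraries, 14.9, 16.1 and 15.7 in the ZT8 libraries, 15.5, 17.9 and 16.5 in the ZT14 libraries and 14.6, 13.8 and 14.4 in the ZT20 libraries. The 3 ZT20 libraries of Nr3c1 were the lowest of the 12. Its ZT2, ZT8 and ZT14 ranges overlapped. The log2 difference of ZT20 from ZT14 was -0.22 ± 0.06 (SE; edgeR adjusted p = 0.550) and that of ZT14 from ZT2 was 0.05 ± 0.06 (95% interval -0.08 to 0.18). The highest group mean was 1.17 times the lowest, against 1.14 times for Tsc22d3, 1.93 times for Fam107a and 2.87 times for Plin4.

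**Figure D2:**
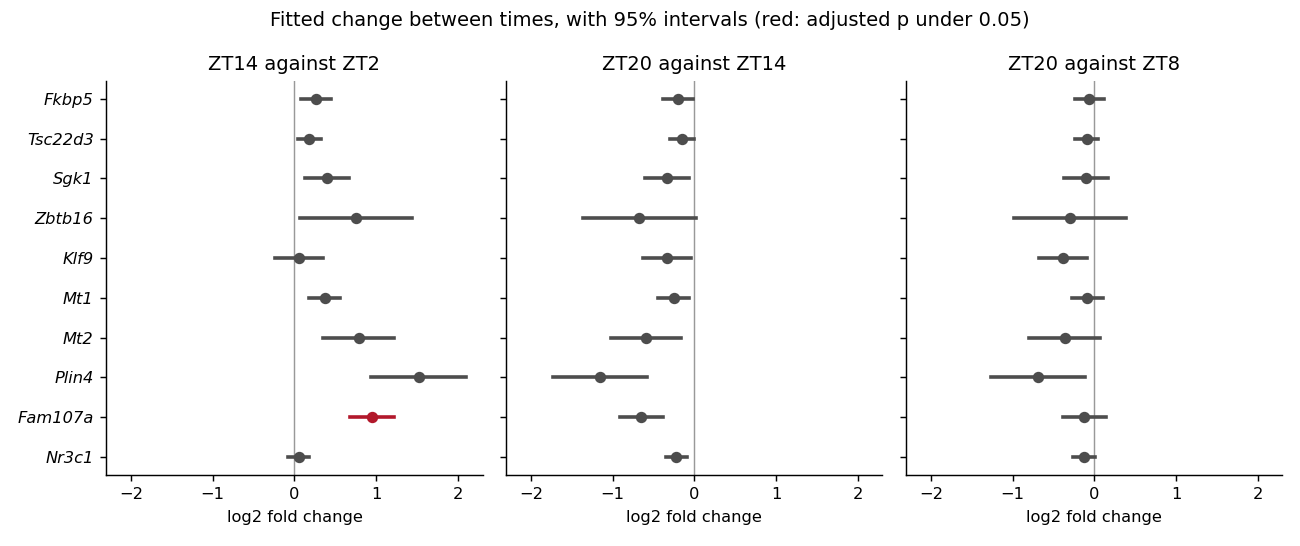
Fitted log2 fold change (horizontal axis) of each gene for ZT14 against ZT2, ZT20 against ZT14 and ZT20 against ZT8, with 95% intervals; red marks an edgeR adjusted p under 0.05. Fam107a in ZT14 against ZT2, at 0.95, is the 1 value in red.

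Across the set, 1 of the 10 members passed for ZT14 against ZT2 and 1 in the 24-h test, Fam107a both times. Over all genes the shares past the edgeR threshold were 0.0465% and 0.0659%. DESeq2, which called more genes in every test, called 3 members in each, Mt1, Plin4 and Fam107a, against 0.415% and 0.628% of all genes. No member passed in the other 7 edgeR tests. For any difference among the times 0.0504% of all genes passed by edgeR, with 7 members at an unadjusted p under 0.05 (6.19% of all genes); DESeq2 called the same 3 members and 1.13% of all genes. For ZT20 against ZT14 edgeR passed 0.0426% of all genes, with 9 members at an unadjusted p under 0.05 (6.28% of all genes); DESeq2 called Plin4 and Fam107a and 0.446% of all genes. For ZT14 against ZT8 edgeR passed 0.0% of all genes, with 1 member at an unadjusted p under 0.05 (6.3% of all genes); DESeq2 called Fam107a and 0.411% of all genes.

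In the remaining 4 tests neither tool called a member. For ZT20 against ZT8, 0.0232% of all genes passed by edgeR and 0.263% by DESeq2, and 2 members were at an unadjusted p under 0.05 (5.28% of all genes). In ZT8 against ZT2 the shares were 0.0194% and 0.322%, with 4 such members (5.78% of all genes). In ZT2 against ZT20 they were 0.00387% and 0.322%, with 2 such members (7.05%). In the 12-h alternation of ZT2 and ZT14 against ZT8 and ZT20 they were 0.0% and 0.488%, with 1 such member, Nr3c1 (7.44%).

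The members shared a direction more than a call. In ZT14 against ZT2, 8 of the 10 were at an unadjusted p under 0.05, against 5.19% of all genes, and in the 24-h test it was also 8, against 5.2%. Their median log2 difference of ZT14 from ZT2 was 0.38, with 10 of 10 above 0, while 49.9% of all genes tested were above 0 and their 10th and 90th percentiles were -0.42 and 0.39. Without ZT14 replicate 2 it was 8 of 10, Klf9 and Nr3c1 being below 0, and without ZT14 replicate 3 it was 9 of 10. From ZT14 to ZT20 the median was -0.34, with 0 of 10 above 0. Every library of ZT14 was above every library of ZT2 in 8 members, against 5.79% of all genes, the exceptions being Klf9 and Nr3c1. Every library of ZT8 was above every library of ZT2 in 5 (Tsc22d3, Mt1, Mt2, Plin4 and Fam107a), against 6.13%. Every library of ZT20 was below every library of ZT14 in 6 (Fkbp5, Sgk1, Mt1, Plin4, Fam107a and Nr3c1), against 5.58%. These comparisons share the libraries of ZT2 or ZT14. The members are known targets of 1 receptor, or in Nr3c1 that receptor itself, all measured in the same 12 libraries. The counts are thus not independent of each other. The members were also chosen with earlier results of these data known, so the counts are not independent support.

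The order of the times was nearly the same in each gene. The mean was highest at ZT14 in 9 of the 10, against 23.4% of all genes, and at ZT8 in Klf9. In 8 members it ran ZT14, ZT8, ZT20 and ZT2 from high to low, and 7.44% of all genes had both their highest mean at ZT14 and their lowest at ZT2. Between neighbours in that order most ranges overlapped: the first and the second time were apart only in Fam107a, the second and the third only in Tsc22d3 and Plin4, and the third and the fourth in none of the 8. Without the library of highest muscle score at each time the highest mean was at ZT14 in 10 of the 10, against 23.9% of all genes, and ZT14 was above ZT2 in every remaining library in 9, against 17.8%. Without ZT20 replicate 2, 5 members rather than 8 had their highest mean at ZT14 and their lowest at ZT2, against 6.21% of all genes.

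Fitted peaks of 8 members fell between 12 and 14 h, a window that held 7.45% of all genes tested. They ran from 12.2 ± 1.22 h for Tsc22d3 to 13.5 ± 0.48 h for Fam107a (SE). The fitted peaks of Nr3c1, at 9.44 ± 1.65 h, and Klf9, at 8.57 ± 1.33 h, were earlier. Among clock genes Nr1d1 peaked at 7.96 ± 0.38 h, Dbp at 9.88 ± 0.41 h, Per2 at 12.0 ± 0.40 h and Arntl at 23.1 ± 0.25 h. The Klf9 and Nr3c1 values thus stood between those of Nr1d1 and Dbp, and those of the other 8 members stood after that of Per2; the differences between peak times were not tested. The median amplitude of the members was 0.20 against 0.10 for all genes (log2). With samples 6 h apart, a peak time and an amplitude are each read from 4 points.

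**Figure D3:**
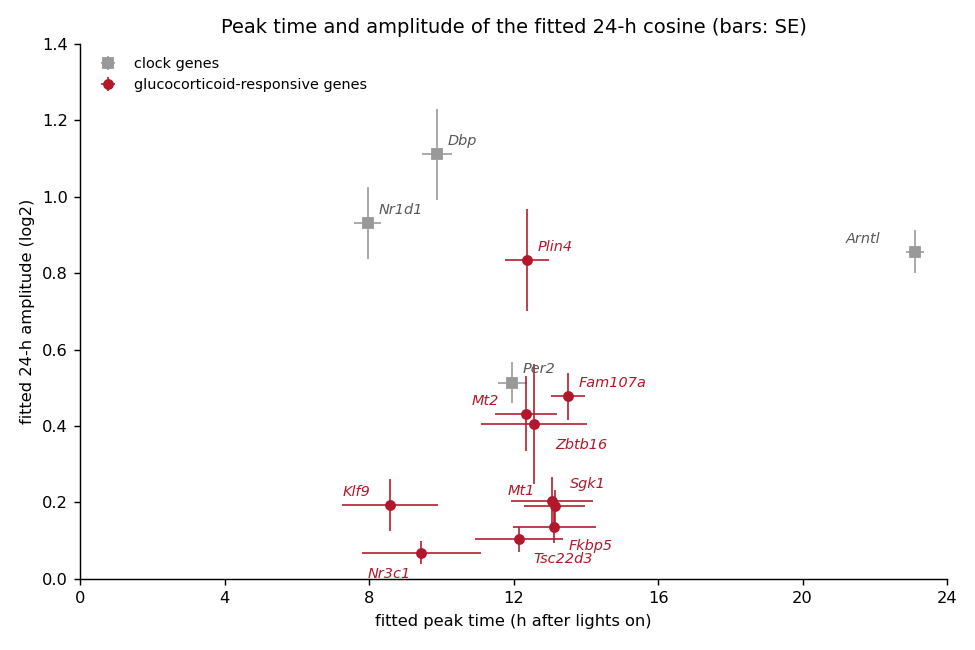
Peak time of the fitted 24-h cosine (horizontal axis, hours after lights on) against its amplitude (vertical axis, log2) for the 10 genes in red and 4 clock genes in grey; bars are 1 SE. Of the 10, 8 lie between 12 and 14 h, Klf9 and Nr3c1 lie at 8.57 and 9.44 h, and Plin4 has the highest amplitude, 0.83.

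Libraries of 1 time also differed from each other in the same sense across the set. ZT14 replicate 3 was the highest of the 3 ZT14 libraries in 9 members, all but Nr3c1, while 29.4% of all genes were highest there. ZT14 replicate 1 was the lowest in 8 members, against 38.8% of all genes. At ZT2, replicate 3 was the lowest in 8, against 32.2%, and replicate 1 the highest in 7, against 31.5%. At ZT8, replicate 3 was the lowest in 6, against 35.2%, and replicate 2 the highest in 7, against 32.1%. At ZT20, replicate 1 was the lowest in 7 members, against 38.7% of all genes, and replicate 2 the highest in 6, against 32.8%. ZT8 replicate 3, ZT14 replicate 1 and ZT20 replicate 1 had the highest muscle scores of their times, 4.27, 4.51 and 5.07 log2 CPM. ZT20 replicate 2 had the lowest of the 12, 0.41, and ZT8 replicate 2 the lowest of its time, 1.88. ZT2 went the other way: replicate 3, the lowest in 8 members, had a score of 1.97, against 3.57 for replicate 1 and 4.02 for replicate 2. The part of muscle RNA in this ordering of libraries was not tested. With the muscle score as a covariate the log2 difference of ZT14 from ZT2 was 0.80 ± 0.16 for Zbtb16, 0.79 ± 0.18 for Mt2 and 0.28 ± 0.07 for Fkbp5 (SE); over the 10 members it moved by at most 0.05, in Zbtb16. With the adipocyte score as a covariate the largest move was 0.34, also in Zbtb16, to 1.10 ± 0.24 (SE; edgeR adjusted p = 0.404).

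**Figure D4:**
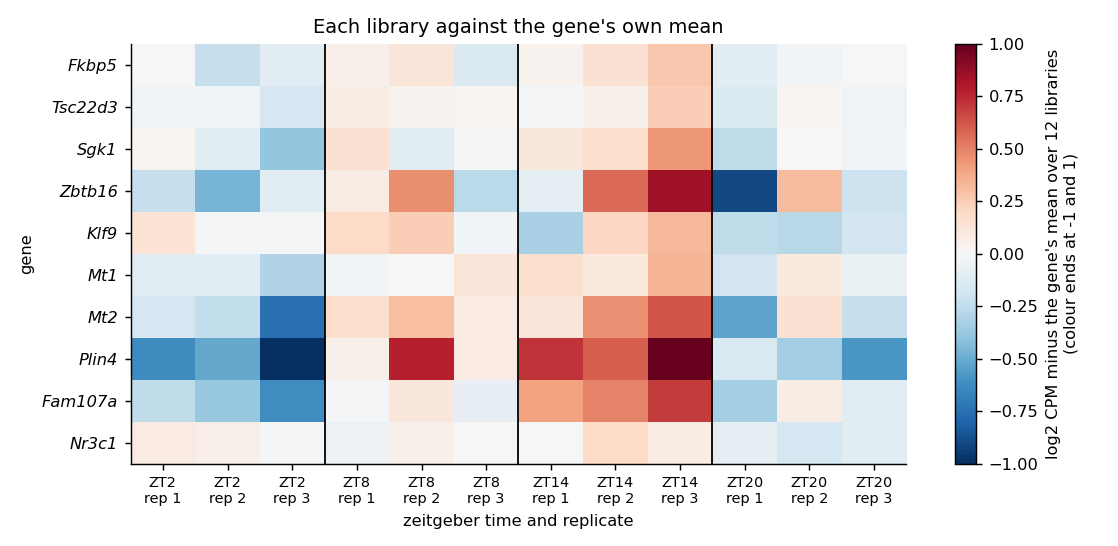
Log2 CPM of each gene in each of the 12 libraries minus the gene's mean over them, in red above and blue below, with the colours ending at -1 and 1; columns are grouped by time. The column of ZT14 replicate 3 is red for all 10 genes and that of ZT2 replicate 3 is blue or white for all 10.

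Over the 12 libraries the members varied together. Log2 CPM of all 45 pairs had a Pearson r above 0, with a median of 0.73, from 0.24 for Klf9 and Mt1 to 0.93 for Tsc22d3 and Mt2. These values are descriptions over libraries that share their times, depth and marker levels. Most members share the order of times given above, and no such values were computed for other sets of genes. Among all genes of at least 1 CPM, the 3 whose pattern was most like that of Fam107a were Cd163, a scavenger receptor of macrophages (r = 0.93), Galnt16, a glycosyltransferase (0.93), and Mt1 (0.92). Cd163 had a mean of 2.71 CPM at ZT14 against 1.27 CPM at ZT2, while the 7 macrophage markers, Cd163 among them, summed to 26.2 to 31.5 CPM at ZT14 and 23.2 to 31.0 CPM at ZT2. For Mt1 they were Fam107a (0.92), Spsb1 (0.90) and Mt2 (0.90), and for Mt2 they were Tsc22d3 (0.93), Fam107a (0.92) and Mt1 (0.90). Members of the set made up 6 of these 9 places, but r is the same from either side. Fam107a with Mt1 and Mt1 with Mt2 are each listed from both sides, so the places are not separate results.

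Genes that handle the hormone and its receptor showed no call by edgeR. Of 14 such genes tested, which include the mineralocorticoid receptor, the enzymes that activate and inactivate corticosterone, the chaperones and the coregulators, 0 passed in any of the 8 edgeR tests. Their median log2 difference of ZT14 from ZT2 was -0.01, with 6 of 14 above 0. For these 2 times, 2 were at an unadjusted p under 0.05, against 5.19% of all genes. DESeq2 called 0 in that comparison and 1 for ZT20 against ZT14. H6pd, which supplies cofactor to the enzyme that regenerates corticosterone, was at 5.12 ± 0.49 CPM at ZT2 and 6.07 ± 0.34 at ZT14 (SD, n = 3 each; edgeR adjusted p = 0.964 in the 24-h test).

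In comparisons with ZT14, other genes known to be induced by glucocorticoids leaned the same way as the members, with smaller differences. Of 28 tested, 22 were above 0 for ZT14 against ZT2 with a median of 0.12, and 0 passed by edgeR in any test. In that comparison 7 were at an unadjusted p under 0.05, against 5.19% of all genes. All 7 had the higher level at ZT14 (Per1, Dusp1, Hif3a, Sesn1, Mfsd2a, Anxa1 and Klf15), and DESeq2 called Mfsd2a. The lowest p values in the 24-h test were those of Mfsd2a, a lipid transporter of barrier endothelium, and of the clock gene Per1. Mfsd2a had means of 40.2 ± 1.34 CPM at ZT14 and 32.8 ± 2.06, 33.1 ± 3.05 and 34.7 ± 1.50 CPM at ZT2, ZT8 and ZT20 (SD, n = 3 each; edgeR adjusted p = 0.620). Per1 was at 15.8 ± 1.01, 21.6 ± 2.33, 21.9 ± 3.01 and 14.8 ± 4.01 CPM at ZT2, ZT8, ZT14 and ZT20 (SD, n = 3 each; edgeR adjusted p = 0.647). From ZT14 to ZT20, 6 of the 28 were above 0 with a median of -0.18. Without ZT14 the list did not lean the way the members did. For ZT8 against ZT2, 12 of the 28 were above 0 (median -0.02), beside 9 of the 10 members. For ZT20 against ZT8, 13 of the 28 were above 0 (median -0.008), beside 0 of the 10 members. For ZT2 against ZT20, 18 of the 28 were above 0 (median 0.07), beside 2 of the 10 members (median -0.07).

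Inflammatory genes known to be repressed by glucocorticoids lay on both sides of 0 for ZT14 against ZT2, and most had values below 0 for ZT20 against ZT14. Of 11 tested, 7 were above 0 for ZT14 against ZT2 with a median of 0.12, and 0 passed by edgeR in any test. For ZT14 against ZT2, 2 were at an unadjusted p under 0.05, against 5.19% of all genes. DESeq2 called 1, Mmp9, for any difference among the times. Mmp13, a matrix metalloproteinase, was at 0.160 ± 0.0264 CPM at ZT2 and 0.574 ± 0.501 at ZT14, and the adhesion molecule Vcam1 at 4.86 ± 0.37 and 6.27 ± 0.17 CPM (SD, n = 3 each); their edgeR adjusted p in the 24-h test was 0.865 and 0.892. From ZT14 to ZT20, 2 of the 11 were above 0 with a median of -0.42. Between these times 4 were at an unadjusted p under 0.05, against 6.28% of all genes. All 4 were lower at ZT20, and DESeq2 called 1 of them, Mmp9. Mmp3 was below the filter and was not tested.

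Relatives of the members, such as other FK506-binding proteins, TSC22 domain genes, Krüppel-like factors, perilipins and Mt3, gave 0 calls among 15 tested by edgeR, DESeq2 or limma-trend. Their median log2 difference of ZT14 from ZT2 was 0.05, with 12 of 15 above 0. In that comparison 1, Klf15, was at an unadjusted p under 0.05, against 5.19% of all genes. Klf15 was at 8.32 ± 0.56 CPM at ZT2 and 11.1 ± 1.69 at ZT14 and Fam107b at 44.9 ± 1.49 and 46.5 ± 0.78 CPM (SD, n = 3 each), with edgeR adjusted p of 0.758 and 0.921 in the 24-h test. Mt3, the metallothionein of the nervous system, stood at 413 ± 17.3 CPM at ZT2 and 433 ± 27.0 at ZT14 (SD, n = 3 each), a log2 difference of 0.07 ± 0.05 (SE) beside 0.37 ± 0.08 for Mt1 and 0.78 ± 0.20 for Mt2.

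**Figure D5:**
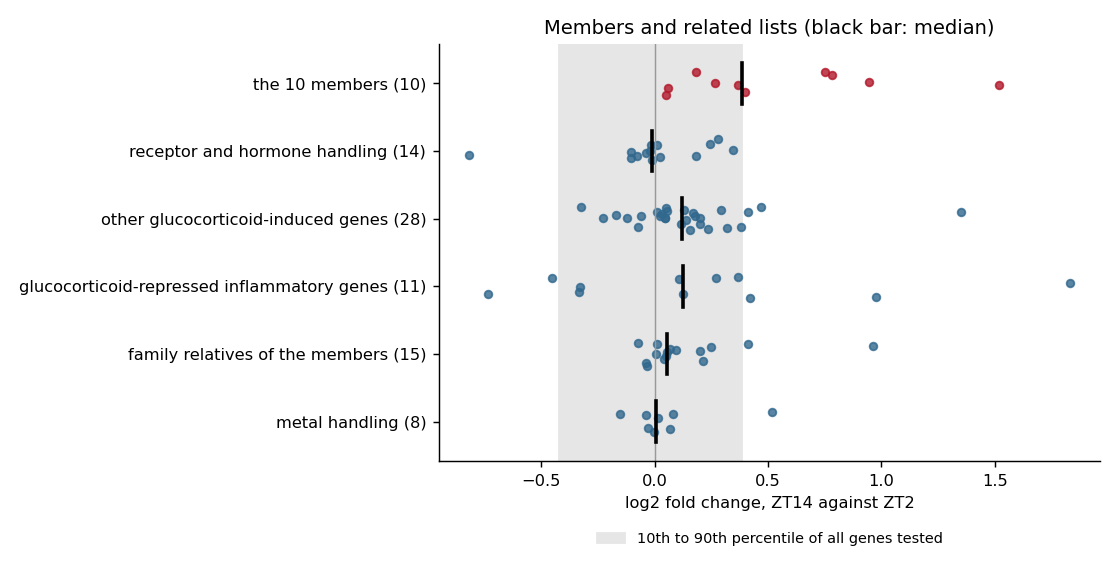
Log2 fold change for ZT14 against ZT2 (horizontal axis) of the 10 members in red and of 5 lists of related genes in blue, 1 point a gene and a black bar for the median; the grey band holds the 10th to 90th percentile of all genes tested, -0.42 to 0.39. The median is 0.38 for the members and 0.12 for the 28 other glucocorticoid-induced genes.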

How the data were processed

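Lumbar DRG of male C57BL/6J mice were profiled by RNA-seq at 4 times with 3 libraries each. HISAT2 2.2.1, StringTie 2.1.5 and build GRCm38.p6 are named in the submitters' processing notes; the sources used here do not give their roles, the annotation release or the handling of strand, so reads of overlapping antisense genes may not be told apart. The deposited table holds the authors' estimated counts, which are not whole numbers. They appear to be on a coverage-like scale. The most frequent value above 10 in a library, 16.4 to 17.2, was shared by short genes of different length. Counting error is thus not modelled exactly. Approximate reads were made from transcript lengths as an alternative.

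Of 38942 rows, 348 assembled loci (0.203% to 0.231% of a library) were left out. Symbols came from GENCODE M21, where 38462 of 38594 IDs matched without the version. Values were rounded and tested in edgeR 4.0.16 (R 4.3.3) on 25809 genes: filterByExpr, TMM, robust quasi-likelihood fit, 1 model of the 4 times over 12 libraries. Tests were any difference, a 24-h cosine and sine pair, the 12-h alternation and 6 pairs of times, with Benjamini-Hochberg adjustment over all genes tested and a threshold of 0.05. Alternatives were DESeq2 1.42.0, limma-trend (limma 3.58.1, prior count 2), RLE size factors, other filters, approximate reads, a replicate block, muscle and adipocyte scores (mean log2 CPM of the markers), fewer libraries and each library left out. Figures were made with matplotlib 3.10.9.

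Genes outside the set were named by rule: the 2 of lowest p in the 24-h test of each related list, any past the threshold, the 3 most correlated with Fam107a, Mt1 and Mt2, and 4 clock genes. A gene that the rule names is not reported here. Others are named where a count of few genes is given, and were chosen after their values were seen. The members and lists were chosen with earlier results of these data known, so counts over them are not independent support. Promoter windows are those of RefSeq on GRCm38.p6; Zbtb16 and Nr3c1 were not matched.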

Additional observations from a re-analysis of the deposited data

How the results depend on the processing

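The number of members past the threshold, 0 for any difference among the times, 1 for the 24-h test and 1 for ZT14 against ZT2 in the edgeR fit, moved under several settings. DESeq2 called 3, 3 and 3, and 1 for ZT14 against ZT8 and 2 for ZT20 against ZT14; over all genes it called 292, 162, 107, 106 and 115 in these tests, against 13, 17, 12, 0 and 11 by edgeR. Approximate reads gave 1, 2 and 2, and called 17, 22 and 19 of all 21452 genes tested there. The stricter filter of 1 CPM in 3 libraries, which left Plin4 untested, and the muscle covariate each gave 1 for any difference. Over all genes these 2 settings called 21 of 16781 and 20 of 25809 in that test. Without the library of highest muscle score at each time the 24-h test and ZT14 against ZT2 gave 0 and 0, against 4 and 0 of all 26167 genes. A fit of only the 6 libraries of ZT14 and ZT2 gave 0, against 6 of all 23976 genes. These fits have fewer libraries. With each library left out in turn the 24-h test and ZT14 against ZT2 each gave between 0 and 1, and the other 7 tests between 0 and 0. Over all genes the fits with a library left out called 5 to 17 in the 24-h test and 3 to 13 for ZT14 against ZT2. RLE size factors, limma-trend, no filter and the adipocyte covariate left every count as it was.

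The replicate number as a block gave 0 in the 24-h test and 0 for ZT14 against ZT2, with edgeR adjusted p of 0.152 and 0.0896 for Fam107a. Over all 25809 genes the fit with the block called 4 and 5. Deviations of same-numbered libraries correlated between -0.06 and 0.08, and 3 of the 12 libraries correlated best with their own number. The median r was 0.013 for libraries of the same number and 0.006 for those of other numbers. Whether the numbers mark a shared round of collection or preparation is not said in the labels. These correlations cannot decide it, since a small shared effect need not show in them.

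Counts of the order of the times without libraries were added after seeing the data. With each library left out, the highest mean was at ZT14 in 8 to 10 members, against 21.8% to 27.0% of all genes. ZT14 was above ZT2 in every remaining library in 8 to 9 members. The share of all genes for this was 5.79% without a ZT8 or ZT20 library. It was 10.1% to 11.6% without a ZT2 or ZT14 library, where fewer libraries are compared. Both the highest at ZT14 and the lowest at ZT2 held in 5 to 8 members, against 6.00% to 9.11% of all genes. Signs that turned (log2) in the changes for ZT14 against ZT2, ZT14 against ZT8 and ZT20 against ZT8 are given here. For ZT14 against ZT2, Klf9 ran from -0.078 to 0.227 and Nr3c1 from -0.012 to 0.0957 with 1 library left out, the values below 0 coming without ZT14 replicate 2 or 3 for Klf9 and without ZT14 replicate 2 for Nr3c1. Klf9 for ZT14 against ZT8, -0.05, was above 0 without ZT14 replicate 1 (0.12), without ZT8 replicate 2 (0.0092), without the libraries of highest muscle score (0.05) and with the adipocyte covariate (0.15). Tsc22d3 for the same times, 0.06, was -0.02 without ZT14 replicate 3. Mt1 for ZT20 against ZT8 was 0.0235 without the libraries of highest muscle score. The causes of these moves were not tested. Plin4 and Zbtb16, at the lowest levels, are the members whose precision depth limits most.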
